A study of Mus musculus with 9 samples.

Results

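Genes that defend the retina against oxidants were followed through oxygen-induced retinopathy, a mouse model in which high oxygen prunes the growing retinal vessels and room air then leaves the tissue short of oxygen. The set held 34 genes chosen by name: targets and regulators of the transcription factor NRF2, and enzymes of glutathione, thioredoxin, peroxide and superoxide metabolism. Of the 34, 31 had a probe named for the gene on the array and 26 were tested, among 10943 genes with a tested probe in all. Each gene was represented by its most intense detected probe. Whole retinas of C57BL/6N mice were measured on Illumina bead arrays, 3 arrays per group, each with RNA of both retinas of 1 mouse. Pups of the hypoxic group spent 5 days with their mothers in 75 ± 2% oxygen, starting at postnatal day 7 (P7), and were sampled at P12.5 after 12 hours in room air. The hyperoxic group had the same oxygen and was sampled at P12, at 0 hours in room air. Control retinas came from normal mice at P12. No untreated P12.5 mice were analysed here, so room air and 12 more hours of age, at another time of day, cannot be told apart in comparisons with P12.5.

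NRF2, encoded by Nfe2l2, binds antioxidant response elements in promoters together with small MAF proteins. In unstressed cells KEAP1 holds NRF2 and sends it to degradation, and oxidants or electrophiles that modify KEAP1 release it. Its targets supply glutathione, NADPH, thioredoxin reductase and quinone-reducing enzymes. Peroxiredoxins and glutathione peroxidases remove peroxides, superoxide dismutases turn superoxide into hydrogen peroxide, and TXNIP binds thioredoxin and limits glucose uptake. In the retina, photoreceptors use much oxygen and carry lipids that are easily oxidised, which makes these enzymes part of their normal upkeep.

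Promoter sequences from RefSeq (build GRCm38.p6) were searched over the 250 bases before each annotated start, on both strands. A window was found for 29 of the 34 genes. The core antioxidant response element TGACNNNGC lay in 8 of these 29 genes, of which 6 were tested, and in 10.2% of all 32851 windows. The E-box CACGTG was found in Prdx4 alone of the 29 genes and in 6.02% of all windows. The core hypoxia response element ACGTG, which overlaps the E-box, was found in 8 of the 29 genes and in 16.6% of all windows. A carbohydrate response element, a pair of CACGAG runs 5 bases apart known from the TXNIP promoter, was found in Txnip and in no other of the windows; as it was searched because it is known there, its rarity is no evidence. The antioxidant response element cores are given here as the sites at which NRF2 could be looked for, read 5′ to 3′ on the strand that carries the motif.
Prdx1, chromosome 4: TGACTCAGC
Gclm, chromosome 3: TGACGGTGC
Txnrd1, chromosome 10: TGACAAAGC
Sod1, chromosome 16: TGACCACGC
Gsta3, chromosome 1: TGACATTGC
Nfe2l2, chromosome 2: TGACTCCGC
The upstream windows of the 3 genes that passed the test are shown with that of Gclm, a classical NRF2 target that did not. Capitals mark the letters of any searched motif, and each window is given in the direction of its gene. In the Gclm window the capitals are the antioxidant core, on the opposite strand, and the hypoxia core.
Txnip, chr3:96557707-96557956, plus strand: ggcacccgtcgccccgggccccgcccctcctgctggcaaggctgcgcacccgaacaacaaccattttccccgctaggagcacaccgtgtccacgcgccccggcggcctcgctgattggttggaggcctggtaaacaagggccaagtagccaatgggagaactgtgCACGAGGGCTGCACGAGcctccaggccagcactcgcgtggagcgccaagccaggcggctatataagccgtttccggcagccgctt
Prdx4, chrX:155338461-155338710, minus strand: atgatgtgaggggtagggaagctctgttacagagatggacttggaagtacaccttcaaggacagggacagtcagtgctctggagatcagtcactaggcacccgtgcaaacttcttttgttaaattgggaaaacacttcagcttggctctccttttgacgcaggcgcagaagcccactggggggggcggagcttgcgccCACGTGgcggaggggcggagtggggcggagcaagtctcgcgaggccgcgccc
Prdx3, chr19:60874539-60874788, minus strand: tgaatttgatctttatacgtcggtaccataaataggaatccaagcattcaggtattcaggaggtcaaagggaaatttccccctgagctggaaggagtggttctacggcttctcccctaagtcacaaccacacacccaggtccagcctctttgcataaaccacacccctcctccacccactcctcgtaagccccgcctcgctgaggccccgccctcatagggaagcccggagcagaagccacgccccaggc
Gclm, chr3:122245307-122245556, plus strand: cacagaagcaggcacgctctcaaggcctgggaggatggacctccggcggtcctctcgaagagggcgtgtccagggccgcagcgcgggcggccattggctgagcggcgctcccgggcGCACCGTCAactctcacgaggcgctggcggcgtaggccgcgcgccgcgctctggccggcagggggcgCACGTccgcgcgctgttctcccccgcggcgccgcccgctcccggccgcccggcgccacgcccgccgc
The Prdx3 window held none of the 4 motifs. A match is a run of letters and was not tested as a binding site.

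Hyperoxic 1 stood apart from the other arrays. Its median intensity was 163.6, against 67.4 to 82.3 elsewhere, and 30.6% of its probes were detected, against 42.1% to 44.5%. Median intensity was also higher on the hypoxic arrays (79 to 82.3) than on the control arrays (67.4 to 69.4). Intensities before normalization, where given below, are not adjusted for this. The labels of the P12 arrays were also in doubt. The deposited ratios had a median of 1 at 100% of probes over control 1, hyperoxic 2 and hyperoxic 3, here called the ratio reference, whereas the next best among 84 possible trios had 42.7%. The columns of detection p-values beside the 3 control intensities followed those same 3 arrays. The mean log2 level of 10 tested endothelial markers split along the same line. It was 7.80 to 7.92 on the reference arrays hyperoxic 2, hyperoxic 3 and control 1, and 6.90 to 7.01 on hyperoxic 1, control 2 and control 3. Comparisons are given by label, and P12.5 is also set against all 6 P12 arrays. The size of that difference does not use which P12 array has which label. Its SE and p do use the labels, because the spread was estimated within the labelled groups. High Xist on hypoxic 2, control 1 and control 3 (9.94 to 10.17 on the log2 scale, against 5.51 to 7.16 on the others) shows that the groups were not balanced for sex, which was not a term in the fits.

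Levels below are log2 values after background correction and quantile normalization, and differences are log2 differences ± SE from limma, so 1 is a doubling. Levels of different genes come from different probes and are not compared. Across the 9 arrays Srxn1 varied least, with a range of 0.23, and Txnip most, with a range of 1.28. Hyperoxic 1 carried the highest level of 13 of the 26 genes and the lowest of 2. The same count over all tested genes is not given, so nothing particular to the 26 genes is read from it. Where groups are said not to overlap, the share of all genes that separate in that way is likewise not given.

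**Figure D1:**
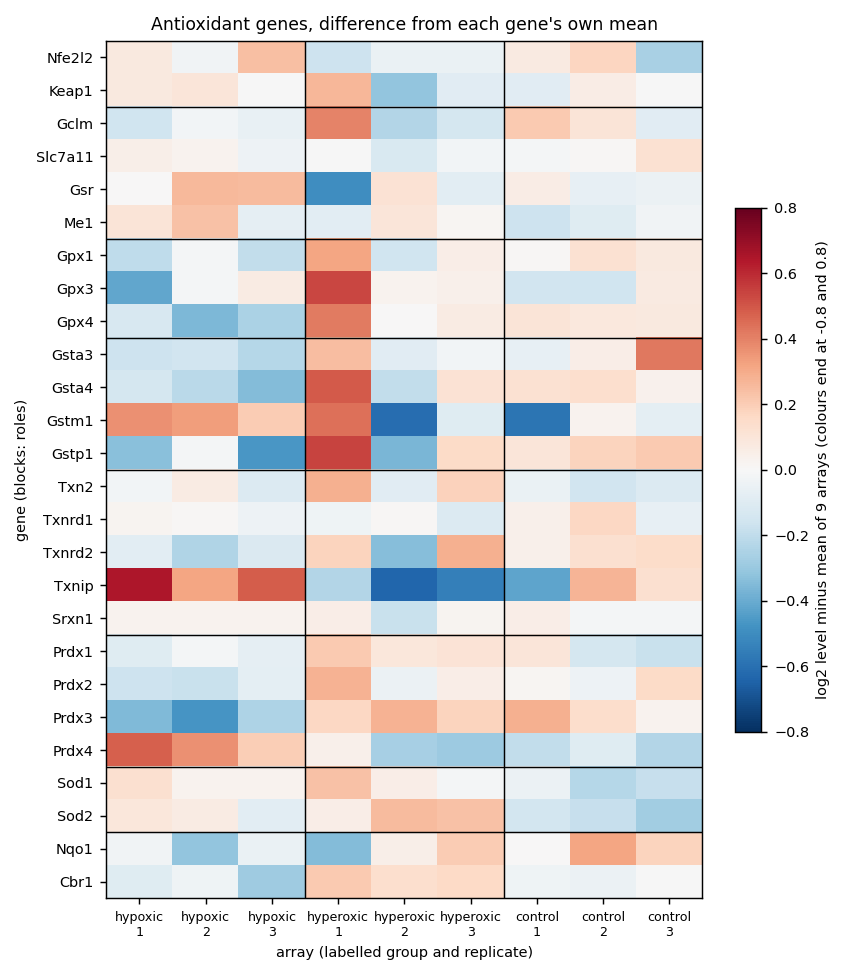
Level of each of the 26 tested genes on each array, as the log2 difference from the mean of that gene over the 9 arrays (colour), with genes in rows by role and arrays in columns by labelled group. Txnip and Prdx4 are red on the hypoxic arrays and Prdx3 is blue there, while hyperoxic 1 differs from hyperoxic 2 and 3 in many rows.

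Between P12.5 and all 6 P12 arrays, 2 of the 26 genes rose and 1 fell. Txnip and the endoplasmic reticulum peroxiredoxin Prdx4 were higher at P12.5, and the mitochondrial peroxiredoxin Prdx3 was lower. By the same rule (limma adjusted p under 0.05 over all 19620 tested probes) 2.45% of all genes rose and 2.07% fell. The median difference of the 26 genes was -0.06, against 0.00 over all genes. Its sign depended on the scaling, being 0.18 after median centring, where all probes had 0.24, and 0.09 in the deposited ratios, where all probes had 0.13. All probes had 0.02 in the main fit, so the median of the 26 genes lay below that of all probes under each of these scalings. Classical NRF2 targets did not pass the test: Nqo1 was at -0.20 ± 0.14, Gclm at -0.12 ± 0.14, Srxn1 at 0.04 ± 0.09, Txnrd1 at -0.00 ± 0.09 and Slc7a11 at 0.02 ± 0.09.

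Between P12.5 and the hyperoxic arrays, Txnip rose, Prdx3 fell and 24 genes did not pass, where 1.20% of all genes rose and 0.758% fell. The median of the 26 genes was -0.12, against 0.03 over all genes. It was 0.17 when arrays were median-centred (0.31 over all probes) and 0.19 in the deposited ratios (0.20 over all probes). Between P12.5 and the control arrays 0 of the 26 passed in either direction, where 1.53% of all genes rose and 0.768% fell, and 4 of the 26 had an unadjusted p under 0.05, as did 21.4% of all genes. The median there was -0.03, the same as over all genes. These comparisons share the 3 hypoxic arrays, so they are not independent of each other.

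Between the hyperoxic and the control arrays 0 of the 26 genes passed, as did 0% of all genes, while 3 of the 26 (Sod2, Sod1 and Txnip) and 8.47% of all genes had an unadjusted p under 0.05 (limma). The median of the 26 was 0.00, against -0.04 over all genes.

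**Figure D2:**
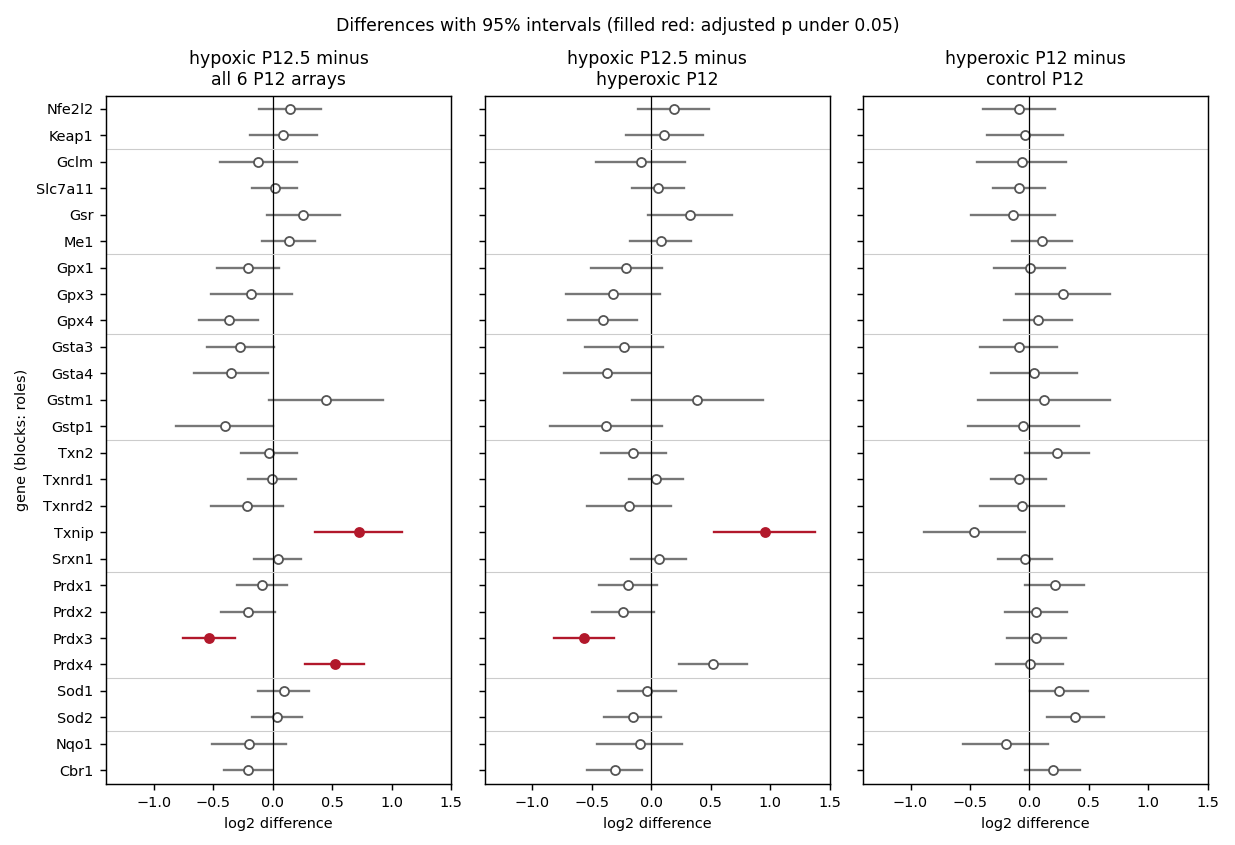
Log2 difference (x axis) with its 95% interval for each of the 26 genes (rows, in blocks by role) in 3 comparisons, with genes of adjusted p under 0.05 filled in red. Txnip, Prdx3 and Prdx4 are filled in the first panel, Txnip and Prdx3 in the second, and no gene in the third.

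Both regulators were measured. Nfe2l2 itself was dim, detected on 3 of 3 hypoxic, 2 of 3 hyperoxic and 2 of 3 control arrays, and its level was 5.22 to 5.49 on the hypoxic, 5.08 to 5.19 on the hyperoxic and 4.99 to 5.42 on the control arrays. Its P12.5 difference from all P12 arrays was 0.15 ± 0.12. Keap1, the repressor of NRF2, was at 9.54 ± 0.05 at P12.5 and 9.45 ± 0.19 over the P12 arrays (SD, n = 3 and 6), a difference of 0.09 ± 0.13, and its other 2 tested probes were at -0.05 and -0.00. NRF2 is controlled largely at the protein level, which an RNA array does not measure.

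Among genes of glutathione synthesis and reduction, 4 were tested and 0 passed in any of the 4 comparisons. Gclm, the modifier subunit of glutamate-cysteine ligase, had a 95% interval of -0.44 to 0.20 for P12.5 against all P12 arrays. Slc7a11, which imports the cystine for glutathione, had the interval -0.17 to 0.21. That value comes from 1 probe with no accession in the annotation, and the other 4 probes of Slc7a11 were not detected on any array. Gsr, the reductase that restores glutathione, was at 6.91 ± 0.15 at P12.5, against 6.65 ± 0.22 over the P12 arrays (SD, n = 3 and 6), with an adjusted p of 0.316 by limma. The NADPH-forming malic enzyme Me1 differed by 0.13 ± 0.10. The interval of Gsr was -0.05 to 0.56, wider than that of Slc7a11. Gclc, the catalytic subunit, was not detected on any array, and G6pdx had no named probe.

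None of the 3 glutathione peroxidases passed, and the size of their P12.5 differences depended on the scaling. Against all P12 arrays Gpx1 alone changed direction, under 2 of 19 alternatives. Gpx4, which reduces oxidised membrane lipids, was at 13.07, 12.84 and 12.95 on hypoxic 1 to 3. It was at 13.62, 13.20 and 13.27 on hyperoxic 1 to 3, and at 13.30, 13.29 and 13.28 on control 1 to 3. After quantile normalization every hypoxic array lay below every P12 array. Before it the groups overlapped, with intensities of 10413, 7829 and 9244 on the hypoxic, 11233, 10262 and 9906 on the hyperoxic and 8455, 8920 and 8489 on the control arrays. These intensities were not adjusted for the brightness of the arrays. The difference from all P12 arrays was -0.37 ± 0.11 with an adjusted p of 0.0932 by limma, and without hyperoxic 1 it was -0.31 ± 0.09 with an adjusted p of 0.0347. With median centring the Gpx4 difference from all P12 arrays was -0.02, and with the deposited ratios that from the hyperoxic arrays was 0.08. The cytosolic Gpx1 differed by -0.21 ± 0.12 and the secreted Gpx3 by -0.18 ± 0.15. With median centring these were 0.09 for Gpx1 and -0.01 for Gpx3.

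Of 4 glutathione transferases 0 passed, with Gsta3, Gsta4 and Gstp1 below 0 and Gstm1 above it. Gsta4, which conjugates the lipid aldehyde 4-hydroxynonenal, was at 9.16, 9.08 and 8.95 on hypoxic 1 to 3, 9.79, 9.10 and 9.42 on hyperoxic 1 to 3, and 9.42, 9.43 and 9.34 on control 1 to 3. Hyperoxic 2 lay among the hypoxic arrays, so the groups overlapped. The difference from all P12 arrays was -0.35 ± 0.14 with an adjusted p of 0.181 by limma. With median centring it was -0.05, where the median of all probes was 0.24. With the deposited ratios the Gsta4 difference from the hyperoxic arrays was 0.05, where the median of all probes was 0.20. Gstp1 differed by -0.41 ± 0.18, and its other 2 tested probes by -0.35 and -0.32; with median centring Gstp1 was at -0.12 and Gsta3 at -0.01. Gstm1 was 8.01, 7.98 and 7.85 on hypoxic 1 to 3, against 8.09, 7.04 and 7.55 on hyperoxic 1 to 3 and 7.07, 7.67 and 7.57 on control 1 to 3. Its spread within the P12 groups was large, and the difference of 0.45 ± 0.21 had an adjusted p of 0.257 by limma. Without hyperoxic 1 the Gstm1 difference was 0.58 ± 0.15 with an adjusted p of 0.0221. It was 0.73 ± 0.17 against the reference arrays (adjusted p = 0.026 by limma) and 0.17 ± 0.17 against the other P12 arrays (adjusted p = 0.561). The transferases have close paralogs, and their probes may detect more than 1 gene.

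In the thioredoxin system Txnip moved and the enzymes did not pass. Txnip, the inhibitor of thioredoxin, was at 9.31, 8.97 and 9.14 on hypoxic 1 to 3. It was at 8.42, 8.03 and 8.11 on hyperoxic 1 to 3, and at 8.24, 8.93 and 8.79 on control 1 to 3. Every hypoxic array was above every P12 array, but hypoxic 2 exceeded control 2 by little. Txnip rose by 0.95 ± 0.19 against the hyperoxic arrays, a fold of 1.94 (adjusted p = 0.0433 by limma), and by 0.72 ± 0.16 against all P12 arrays (adjusted p = 0.0451). Against the control arrays it was at 0.49 ± 0.19 (adjusted p = 0.193). Before normalization the hypoxic arrays were also above all P12 arrays, with intensities of 780.7, 587.6 and 710.1 on the hypoxic arrays, 451.4, 346.1 and 316.9 on the hyperoxic and 302.1, 478.0 and 437.8 on the control arrays. These were not adjusted for brightness, which was higher on the hypoxic than on the control arrays.

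Within P12 the level of Txnip followed the ratio reference more than the labels. It was 8.03, 8.11 and 8.24 on hyperoxic 2, hyperoxic 3 and control 1, and 8.42, 8.93 and 8.79 on hyperoxic 1, control 2 and control 3. Set by that grouping, the arrays outside the reference differed from the reference arrays by 0.59 ± 0.15. P12.5 differed from the arrays outside the reference by 0.43 ± 0.15 (adjusted p = 0.108 by limma) and from the reference arrays by 1.02 ± 0.15 (adjusted p = 0.00271). The sign of Txnip between the 2 P12 groups thus depends on the labels: it was -0.47 ± 0.19 for hyperoxic against control as labelled. Both calls of Txnip were lost under 11 of 19 alternatives, among them each fit that left out 1 array other than hyperoxic 1 (against all P12 arrays) or than hyperoxic 1 or control 1 (against the hyperoxic arrays), and its sign was positive at P12.5 in all of them.

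Of the thioredoxin enzymes, mitochondrial Txn2 differed by -0.03 ± 0.10 and mitochondrial Txnrd2 by -0.22 ± 0.14 between P12.5 and all P12 arrays. Srxn1, the sulfiredoxin that repairs over-oxidised peroxiredoxins and a classical NRF2 target, had a 95% interval of -0.16 to 0.24. Its 2 other probes were at -0.04 and 0.17. Txnrd1, the cytosolic reductase, was detected on 7 arrays and lay at 5.03 to 5.31 over all 9, close to the lowest detected levels of 5.00 to 5.85, so little could be measured there. Of the 4 probes named for Txn1, 3 were listed at 0 on every array and left out, and the other was not detected on any array.

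The peroxiredoxins went in both directions. Prdx3, which removes hydrogen peroxide in mitochondria, was at 8.66, 8.54 and 8.77 on hypoxic 1 to 3. It was at 9.18, 9.30 and 9.20 on hyperoxic 1 to 3, and at 9.30, 9.16 and 9.05 on control 1 to 3. The groups did not overlap between P12.5 and P12. Prdx3 fell by 0.54 on the log2 scale against all P12 arrays (SE 0.10, fold 0.689, adjusted p = 0.023 by limma). Against the hyperoxic arrays its difference was -0.57 ± 0.11 (adjusted p = 0.0425) and against the control arrays -0.51 ± 0.11 (adjusted p = 0.0543). Set against the reference arrays the difference was -0.61 ± 0.10 and against the other P12 arrays -0.47 ± 0.10 (adjusted p = 0.00573 and 0.0309 by limma). Both differences thus passed when grouped by the ratio reference, whereas as labelled the one from the control arrays did not. The calls of Prdx3 depended on scaling. Before normalization the intensities were 514.6, 451.8 and 564.8 on the hypoxic arrays, 689, 749.1 and 614.5 on the hyperoxic and 577, 548.8 and 515.2 on the control arrays, so that hypoxic and control arrays overlapped. These too were not adjusted for the higher brightness of the hypoxic arrays. With median centring in place of quantile normalization the Prdx3 difference from all P12 arrays was -0.24, where the median of all probes was 0.24, and it did not pass (adjusted p = 0.508). The call against all P12 arrays was also lost without control 2 and without any 1 hypoxic array.

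Prdx4, which works in the endoplasmic reticulum during protein folding, was at 10, 9.89 and 9.72 on hypoxic 1 to 3. It was at 9.57, 9.26 and 9.23 on hyperoxic 1 to 3, and at 9.33, 9.43 and 9.29 on control 1 to 3. All hypoxic arrays lay above all P12 arrays. Prdx4 rose by 0.52 ± 0.11 against all P12 arrays, a fold of 1.43 (adjusted p = 0.036 by limma). Against hyperoxic and control arrays alone it was at 0.52 ± 0.13 each, with adjusted p = 0.0773 and 0.0703. It was 0.60 ± 0.11 against the reference arrays and 0.44 ± 0.11 against the other P12 arrays (adjusted p = 0.0103 and 0.0479). Without hyperoxic 1 it was 0.57 ± 0.09 against all P12 arrays (adjusted p = 0.00278 by limma). With median centring it was 0.82 (adjusted p = 0.0425), where the median of all probes was 0.24. Of the fits that left out 1 array, those without hyperoxic 1 or hyperoxic 2 kept the call. The cytosolic peroxiredoxins did not pass: Prdx1 was at -0.09 ± 0.09 and Prdx2 at -0.21 ± 0.10 against all P12 arrays. With median centring Prdx2 was at 0.08, where the median of all probes was 0.24. The other 2 probes of Prdx2 were at 0.11 and 0.04, so its probes differed in sign. Prdx5 and Prdx6 had no named probe.

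**Figure D3:**
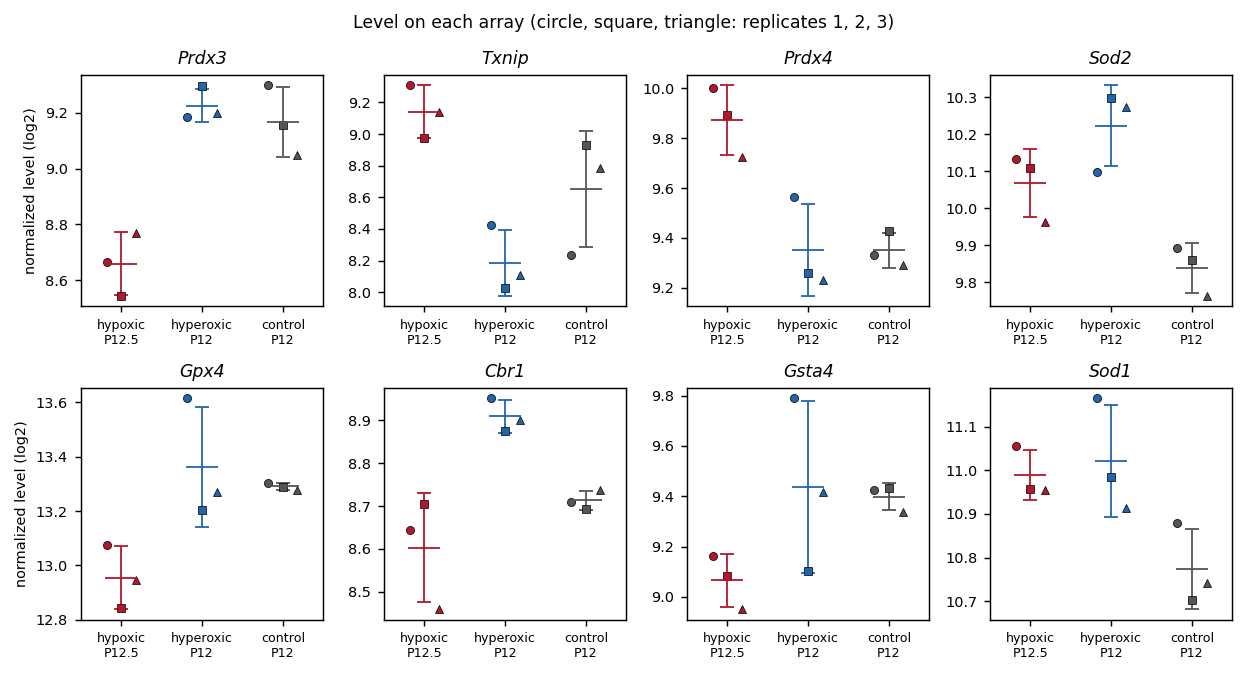
Normalized log2 level (y axis) on each array of the 8 genes of lowest p, with hypoxic P12.5 left, hyperoxic P12 in the middle and control P12 right; horizontal bars are group means and error bars SD (n = 3). The hypoxic arrays lie apart from all P12 arrays for Prdx3, Txnip, Prdx4 and Gpx4, and the hyperoxic apart from the control arrays for Sod2, Cbr1 and Sod1. The 8 genes were picked for low p, and the share of all genes that separate in these ways is not given.

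Neither of the 2 superoxide dismutases tested passed in any of the 4 comparisons. Sod2, the manganese enzyme of mitochondria, was at 10.13, 10.11 and 9.96 on hypoxic 1 to 3, at 10.10, 10.30 and 10.28 on hyperoxic 1 to 3, and at 9.89, 9.86 and 9.76 on control 1 to 3. Both oxygen-treated groups lay above the control arrays without overlap. The hyperoxic minus control difference was 0.38 ± 0.11 with an adjusted p of 0.458 by limma. Without hyperoxic 1 it was 0.45 ± 0.11 with an adjusted p of 0.0499. Grouped by the ratio reference, the arrays outside it differed from the reference by -0.25 ± 0.14, the other sign. The copper-zinc enzyme Sod1 was at 11.06, 10.96 and 10.95 on hypoxic 1 to 3, at 11.17, 10.98 and 10.91 on hyperoxic 1 to 3, and at 10.88, 10.70 and 10.74 on control 1 to 3. Its hyperoxic minus control difference was 0.25 ± 0.11 with an adjusted p of 0.522 by limma, and another probe of Sod1 was at -0.36. Grouped by the ratio reference, Sod1 outside it differed from the reference by -0.06 ± 0.13. The extracellular Sod3 and catalase, Cat, were not detected on any array.

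Of the remaining NRF2 targets, the quinone reductase Nqo1 was dim, at 5.13, 4.85 and 5.11 on hypoxic 1 to 3, against 4.81 to 5.36 on the hyperoxic and 5.17 to 5.48 on the control arrays. It was detected on 7 arrays, and the difference of -0.30 ± 0.16 from the control arrays had an adjusted p of 0.338 by limma. The carbonyl reductase Cbr1 was at 8.64, 8.71 and 8.46 on hypoxic 1 to 3, at 8.95, 8.87 and 8.90 on hyperoxic 1 to 3, and at 8.71, 8.69 and 8.74 on control 1 to 3. The hyperoxic arrays lay above both other groups without overlap. Cbr1 differed by -0.31 ± 0.10 between P12.5 and hyperoxic arrays (adjusted p = 0.159 by limma) and by 0.20 ± 0.10 between hyperoxic and control arrays (adjusted p = 0.56). The P12.5 minus hyperoxic difference of Cbr1 turned to 0.04 when arrays were median-centred and to 0.09 in the deposited ratios. The medians of all probes were then 0.31 and 0.20. The UDP-glucose dehydrogenase Ugdh was not detected on any array.

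Other genes of the same pathways were taken from a list of 84, of which 67 were tested. Against all P12 arrays 2 rose, 2 fell and 63 did not pass, at a median of -0.01, where 2.45% of all genes rose and 2.07% fell. Heme oxygenase Hmox1, which is induced by NRF2 and by hypoxia-inducible factors, was at 7.26, 6.84 and 7.09 on hypoxic 1 to 3. It was at 5.94, 5.55 and 5.77 on hyperoxic 1 to 3 and at 5.67, 5.78 and 6.18 on control 1 to 3, without overlap. Hmox1 rose by 1.25 ± 0.15 (adjusted p = 0.00369 by limma), more than any of the 26 genes.

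The mitochondrial isocitrate dehydrogenase Idh2, which makes NADPH, was at 8.20, 8.23 and 7.93 on hypoxic 1 to 3. It was at 7.79, 8.0 and 7.87 on hyperoxic 1 to 3 and at 7.21, 7.13 and 7.39 on control 1 to 3. As with Sod2, both oxygen-treated groups lay above the control arrays. Idh2 rose at P12.5 by 0.88 ± 0.13 against the control arrays (adjusted p = 0.0135 by limma) and by 0.55 ± 0.11 against all P12 arrays (adjusted p = 0.0295). Against the hyperoxic arrays it was at 0.23 ± 0.13, and hyperoxic minus control was 0.65 ± 0.13 with an adjusted p of 0.458. With P12 arrays grouped by the ratio reference, Idh2 at P12.5 was at 0.55 ± 0.19 against all P12 arrays and did not pass (adjusted p = 0.102). Idh2 and the ubiquitin ligase subunit Rbx1 (0.39 ± 0.11) had the lowest p of the list between the P12 groups, where 0 of 67 passed.

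The theta-class glutathione transferases Gstt1 and Gstt3 fell, while Gstt2, also on the list, was not among the genes that passed. Gstt3 was at 5.75, 5.88 and 5.93 on hypoxic 1 to 3, against 6.95, 6.46 and 6.72 on hyperoxic 1 to 3 and 6.60, 6.71 and 6.75 on control 1 to 3. Gstt1 was at 6.36, 6.28 and 6.59 on hypoxic 1 to 3, against 7.61, 7.07 and 7.25 on hyperoxic 1 to 3 and 7.04, 7.01 and 6.81 on control 1 to 3. Neither overlapped between P12.5 and P12. Against all P12 arrays the differences were -0.84 ± 0.12 for Gstt3 and -0.72 ± 0.13 for Gstt1 (adjusted p = 0.00787 and 0.0248 by limma). Against the hyperoxic arrays both passed, at -0.86 ± 0.14 and -0.90 ± 0.16, and against the control arrays Gstt3 passed at -0.83 ± 0.14 while Gstt1 was at -0.54 ± 0.16 (adjusted p = 0.101). With median centring neither of them, nor Idh2, passed in any P12.5 comparison. The 2 genes are close relatives, so their probes may share signal.

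**Figure D4:**
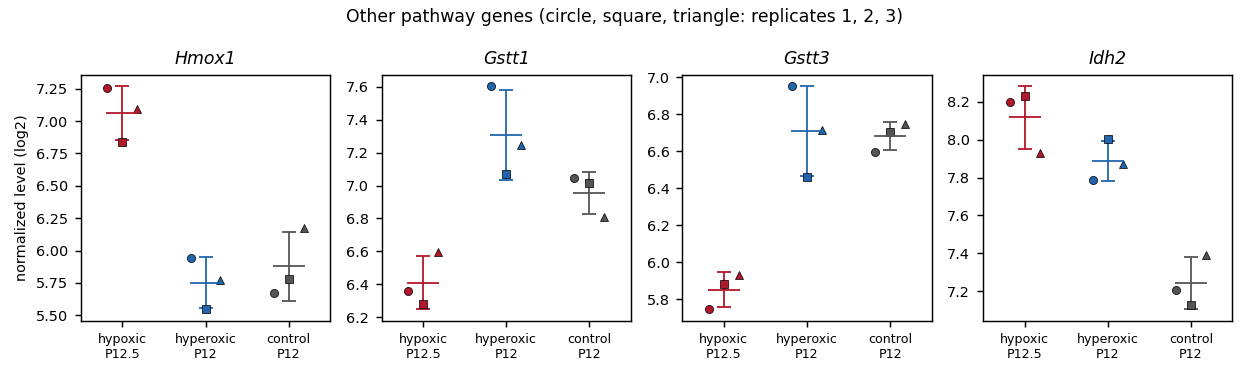
Normalized log2 level (y axis) on each array of the 4 further pathway genes that passed a test, with hypoxic P12.5 left, hyperoxic P12 in the middle and control P12 right; horizontal bars are group means and error bars SD (n = 3). Hmox1 is higher and Gstt1 and Gstt3 lower on the hypoxic arrays than on all others, and the control arrays are lowest for Idh2.

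Some cell type markers also differed at P12.5, and their part in these results was not tested. In whole retina, fewer cells of a type and less RNA per cell cannot be told apart. The mean log2 level of 8 tested cone markers was 8.53 to 8.61 on the hypoxic arrays, 8.99 to 9.31 on the hyperoxic and 8.86 to 9.12 on the control arrays, with Cngb3 not tested. Of the 8, 3 fell against all P12 arrays (limma), where 2.07% of all genes fell. For 8 tested rod markers the ranges were 12.10 to 12.20, 12.18 to 12.30 and 12.21 to 12.27, with 2 lower against all P12 arrays. For 9 tested Muller glia markers they were 10.09 to 10.13, 10.09 to 10.32 and 10.09 to 10.19, with 2 lower. For 9 tested pigment epithelium markers they were 7.59 to 7.88, 7.90 to 8.24 and 8.01 to 8.08, so all hypoxic arrays lay lowest, and 3 of the 9 (Rdh5, Pmel and Dct) fell against all P12 arrays (limma); Rpe65, Best1 and Tyr were not tested. Endothelial markers stood at 7.05 to 7.11 on the hypoxic arrays, with 1 of 10 lower, and 7 pericyte and smooth muscle markers at 6.40 to 6.48, 6.25 to 7.12 and 6.38 to 7.09, with 1 lower. Of 3 tested astrocyte markers, Gfap rose by 0.58 ± 0.13 against all P12 arrays (adjusted p = 0.039 by limma). The other 2 did not pass, and 1 of them was lower at P12.5, at -0.34. The mean level of the 3 was 6.97 to 7.18 on the hypoxic and 6.92 to 7.16 on the control arrays. It was 7.20 on hyperoxic 1 and lowest on hyperoxic 2 and 3, so P12.5 and P12 overlapped. For 7 tested microglia and macrophage markers the ranges were 6.17 to 6.39, 5.95 to 6.57 and 6.19 to 6.35, with 0 called. Red cell genes were measured by 4 markers at 6.96 to 8.04, 7.45 to 8.19 and 7.22 to 8.38, overlapping in all 3 groups. Lens genes (15 tested) varied from 7.40 to 9.76 on the hypoxic, 6.26 to 8.81 on the hyperoxic and 5.61 to 6.55 on the control arrays, highest on hypoxic 1 and hyperoxic 1.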

How the data were processed

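RNA of 9 retinal samples, 3 per group, was measured on Illumina bead arrays. Per the labels' protocols, the RNA was turned into biotinylated cRNA (Ambion MessageAmp). The deposited raw table holds linear probe intensities, treated as neither background-corrected nor normalized, with a detection p-value beside each in the deposited table. For 5 arrays the p-value column that fell with the intensity was not the one beside it, and each column was used with the array it follows. The deposited value table holds a linear ratio per probe, with no statement of its scaling; it served as an alternative and to find the 3 arrays whose median ratio was 1 (within 0.0015).

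Of 46640 probes, 27 at 0 everywhere were left out. Of 46613, 32781 had 1 gene symbol in the platform annotation, 55 several and 13777 none; symbols were updated through gene identifiers. Background correction and quantile normalization used neqc of limma 3.58.1 in R 4.3.3 (offset 16, which shrinks differences of dim genes). A probe was tested if its detection p was under 0.05 on every array of some group (19620 probes), in 1 linear model (lmFit, eBayes) over 9 arrays, two-sided, with Benjamini-Hochberg adjustment at 0.05, and the pipeline was tested on simulated data. The number of arrays limits the precision. The design text calls the samples biological replicates.

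The genes and lists were chosen with earlier results of these data known. By the naming rule, values on every array are given for genes passing in a comparison and for the next of lowest p, up to 8; Gstm1, Nqo1 and the pathway genes shown were added, Gstm1 and Nqo1 after their values were seen. Of the pathway list, those that passed and otherwise the 2 of lowest p are named. Replicate numbers were not taken as pairs.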

Additional observations from a re-analysis of the deposited data

How the results depend on the processing

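Directions of the 5 calls named above (Txnip, Prdx3 and Prdx4) were the same under all 19 alternatives, but the calls were not: Txnip was lost under 11 in both comparisons, Prdx3 under 10 against the hyperoxic arrays and 7 against all P12 arrays, and Prdx4 under 9. Counts are given as genes higher, then lower, where P12.5 minus hyperoxic had 1 and 1, P12.5 minus control 0 and 0, P12.5 minus all P12 2 and 1, and hyperoxic minus control 0 and 0. With an offset of 50, without background correction, or with only probes detected on all 9 arrays, P12.5 minus hyperoxic had 2 higher and P12.5 minus control 1 and 1. With median centring 0 were lower in P12.5 minus hyperoxic and minus all P12. With the deposited ratios, and with the replicate number as a block (replicate block), both comparisons had 0 and 0. With no filter on dim probes 0 were higher in P12.5 minus hyperoxic and 1 in P12.5 minus all P12. Grouping P12 arrays by the ratio reference gave 3 and 1 against the reference arrays, in place of control. Averaging the probes of a gene gave 1 lower in P12.5 minus control. Array weights gave 3 and 1 for hyperoxic minus control, 4 and 11 for P12.5 minus hyperoxic, and 2 and 6 for P12.5 minus control. For P12.5 minus all P12 they gave 8 lower, with Txnip, Prdx4 and Gstm1 higher. Their estimation stopped before converging and gave hyperoxic 3 a weight of 21.5 and hyperoxic 1 one of 0.0979. The share of all genes called is not given for these alternatives, so no result about the 26 genes is read from the counts.

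Leaving out 1 array at a time gave 0 to 1 higher and 0 lower for hyperoxic minus control, 0 to 3 and 0 to 1 for P12.5 minus hyperoxic, 0 to 1 and 0 to 2 for P12.5 minus control, and 0 to 3 and 0 to 2 for P12.5 minus all P12. The upper ends came without hyperoxic 1, where Sod2 (hyperoxic minus control), Gstm1 and Gpx4 passed, and without any 1 hypoxic array 0 genes passed in P12.5 minus hyperoxic or minus all P12. Calls over all 19620 tested probes varied as well, at 0 to 470 higher and 0 to 98 lower for hyperoxic minus control. For P12.5 minus hyperoxic they were 44 to 1026 and 5 to 980. For P12.5 minus control they were 17 to 1797 and 1 to 1372, and for P12.5 minus all P12 59 to 1627 and 10 to 1504. Deviations of same-numbered arrays correlated at -0.34 to 0.11, so the numbers are not shown to pair the samples. Probes called higher and lower in P12.5 minus all P12 were 443 and 309, and over the alternatives 26 to 3168 and 0 to 3183; without hyperoxic 1 they were 1627 and 1504. Of the other pathway genes, Hmox1 passed in P12.5 minus all P12 under every alternative. With 3 arrays a group, a difference whose interval includes 0 could not be told from 0.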

Other observations

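Sod2, Sod1, Idh2 and Cbr1 were higher on all 3 arrays labelled hyperoxic than on all 3 labelled control. Txnip and the endothelial markers split the same 6 arrays along the ratio reference. These genes were named for their low p, and the share of all genes that separate in either way was not counted. No conclusion about the labels or the genes is drawn from these splits. Set by the ratio reference, the arrays outside it differed from the reference arrays by -0.03 ± 0.12 for Cbr1, -0.25 ± 0.14 for Sod2 and -0.06 ± 0.13 for Sod1. In the fits over all 9 arrays without array weights, Sod2, Sod1, Idh2, Cbr1 and Txnip did not pass between P12 arrays under either grouping.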
